A study of Mus musculus with 56 samples.

Results

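The genes described here encode the subunits of the mitochondrial respiratory chain and of ATP synthase. They were chosen by symbol alone: genes named Nduf followed by a, b, c, s or v and a number, Uqcr, Cox4 to Cox8, Sdha to Sdhd, or Atp5, where the spot's RefSeq transcript carried that name. This gave 84 of the 20018 genes that could be named on the array, measured by 113 probes. Sorted by symbol they comprise 37 genes of complex I, 4 of complex II, 8 of complex III, 18 of complex IV (cytochrome c oxidase) and 17 of complex V (ATP synthase). For each gene and tissue the probe with the highest mean sample signal stood for the gene, and 62 of the 84 genes had 1 probe only. Of the subunits encoded by mitochondrial DNA, 0 could be named, so the values describe the nuclear part of the system.

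Oxidative phosphorylation passes electrons from NADH (complex I) and succinate (complex II) through complex III to oxygen at complex IV, and complex V uses the resulting proton gradient to make ATP. Most subunits are made in nearly every cell, in amounts that follow its oxidative demand, which is high in hepatocytes, heart, brown fat and the acid-secreting parietal cells of the stomach. Several small subunits of complex IV come as pairs of genes. One of the pair is used widely, and the other mainly in heart and skeletal muscle (Cox6a2, Cox7a1, Cox8b), in lung (Cox4i2) or in testis (Cox6b2).

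All groups were adult male MutaMouse, a transgenic strain with a lacZ reporter for mutation assays, aged about 14 weeks. They were gavaged daily for 28 days with olive oil alone (group D0) or with the polycyclic aromatic hydrocarbon chrysene in it at 17.5 (D1), 50 (D2) or 150 (D3) mg/kg-bw/day, and tissues were collected 72 h after the last dose. Lung was measured in 5, 5, 3 and 5 mice of D0 to D3, and liver and forestomach in 5, 5, 4 and 5, with 1 two-colour array per mouse and tissue (56 arrays). Sample RNA carried Cy5 and a reference RNA pooled from mouse cell lines carried Cy3, and a level below is the log2 ratio of sample to reference. The reference holds different amounts of different transcripts, so levels were compared between samples for a given gene and not between genes.

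The Cy5 signal was well above background on 49.0% to 56.7% of spots on lung arrays, 34.5% to 46.4% on liver arrays and 18.9% to 51.7% on forestomach arrays. The tissues matched their labels: the 7 alveolar type 2 markers averaged at least 5.52 on each lung array, the 10 hepatocyte markers at least 6.53 on each liver array and the 11 keratinocyte markers at least 4.40 on each forestomach array. Some arrays also held transcripts of other tissues. The lung arrays of mice 17 and 19, both of D3, had skeletal muscle list means of 5.42 and 5.32, against -0.22 or less on the other lung arrays, and forestomach arrays differed in stomach gland markers. In whole tissue, fewer cells of a type and less RNA per cell cannot be told apart. Each slide held 1 tissue, so tissue and slide cannot be told apart either.

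Of the 84 genes, 68 matched a promoter (250 bases before to 50 bases after the annotated start) in the RefSeq set for GRCm38.p6. The NRF1 motif, here GCGCA and GCGC with any 1 base between them, was searched on both strands; NRF1 is a regulator of respiratory chain genes. It was found in 24.7% of the 73 promoters of these genes and in 4.6% of all 32851 promoters. CCGGAAG, a core bound by ETS factors such as GABP, was found in 23.3% and 8.86%, the E-box CAGCTG in 8.22% and 16.3%, TATAAA in 12.3% and 13.6%, AAGGTCA (bound by ESRRA) in 11% and 4.72%, and the MEF2 motif in 1.37% and 3.69%. These are matches of letters, and no binding was measured. The promoters shown are those of 3 widely used subunits (Sdha, Sdhb, Cox8a) and of the muscle isoforms Cox8b and Cox7a1, whose levels set several results below apart. Capitals mark the motifs found; AAGGTCA and the MEF2 motif were in none of the 5 promoters shown, and that of Cox7a1 holds none of the 6.
Sdha, chr13:74350191-74350490, minus strand: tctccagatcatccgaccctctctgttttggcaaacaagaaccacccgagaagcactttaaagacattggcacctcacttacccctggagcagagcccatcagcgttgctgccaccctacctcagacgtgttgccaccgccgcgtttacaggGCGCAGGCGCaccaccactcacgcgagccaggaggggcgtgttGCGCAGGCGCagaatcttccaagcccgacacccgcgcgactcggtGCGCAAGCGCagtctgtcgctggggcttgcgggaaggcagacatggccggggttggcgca
Sdhb, chr4:140961021-140961320, plus strand: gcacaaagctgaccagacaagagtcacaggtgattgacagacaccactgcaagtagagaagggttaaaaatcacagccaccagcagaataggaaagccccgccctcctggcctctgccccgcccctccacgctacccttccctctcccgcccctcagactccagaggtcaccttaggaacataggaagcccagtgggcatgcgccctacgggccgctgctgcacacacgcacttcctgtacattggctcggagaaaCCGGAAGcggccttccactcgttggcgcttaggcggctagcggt
Cox8a, chr19:7217567-7217866, minus strand: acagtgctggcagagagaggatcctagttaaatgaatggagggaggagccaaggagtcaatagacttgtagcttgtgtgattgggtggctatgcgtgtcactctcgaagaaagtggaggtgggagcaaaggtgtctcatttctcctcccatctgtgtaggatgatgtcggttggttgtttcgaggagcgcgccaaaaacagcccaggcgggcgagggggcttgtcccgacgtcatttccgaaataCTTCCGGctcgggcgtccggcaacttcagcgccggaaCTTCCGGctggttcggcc
Cox8b, chr7:140900397-140900696, minus strand: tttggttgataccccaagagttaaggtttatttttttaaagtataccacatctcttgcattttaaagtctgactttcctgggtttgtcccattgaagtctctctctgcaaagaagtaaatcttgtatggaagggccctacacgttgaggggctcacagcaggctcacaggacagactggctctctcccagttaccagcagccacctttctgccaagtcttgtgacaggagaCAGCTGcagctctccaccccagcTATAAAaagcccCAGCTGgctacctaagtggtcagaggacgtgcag
Cox7a1, chr7:30183921-30184220, plus strand: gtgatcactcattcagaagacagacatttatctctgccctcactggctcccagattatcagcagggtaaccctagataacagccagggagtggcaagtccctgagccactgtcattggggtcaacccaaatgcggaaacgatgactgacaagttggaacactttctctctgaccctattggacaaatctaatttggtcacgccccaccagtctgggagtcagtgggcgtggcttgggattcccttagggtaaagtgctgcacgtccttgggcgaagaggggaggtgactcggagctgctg

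The first comparison asks how the subunits differ between tissues of mice given oil alone. In D0 mice 63 of the 82 genes tested were higher in liver than in lung, at a limma adjusted p of 0.05 or less and a difference of at least 1.5-fold, against 22.3% of all probes tested. The median difference over the subunit genes was 1.03 on the log2 scale, against -0.03 over all probes. All 4 genes of complex II and all 8 of complex III were higher in liver, as were 14 of 17 of complex V, 27 of 37 of complex I and 10 of 16 of complex IV. These calls depended on the scaling: with arrays centred on their median and no LOWESS, the median was 0.36 against -0.71 over all probes, and 0 genes were called higher.

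**Figure D1:**
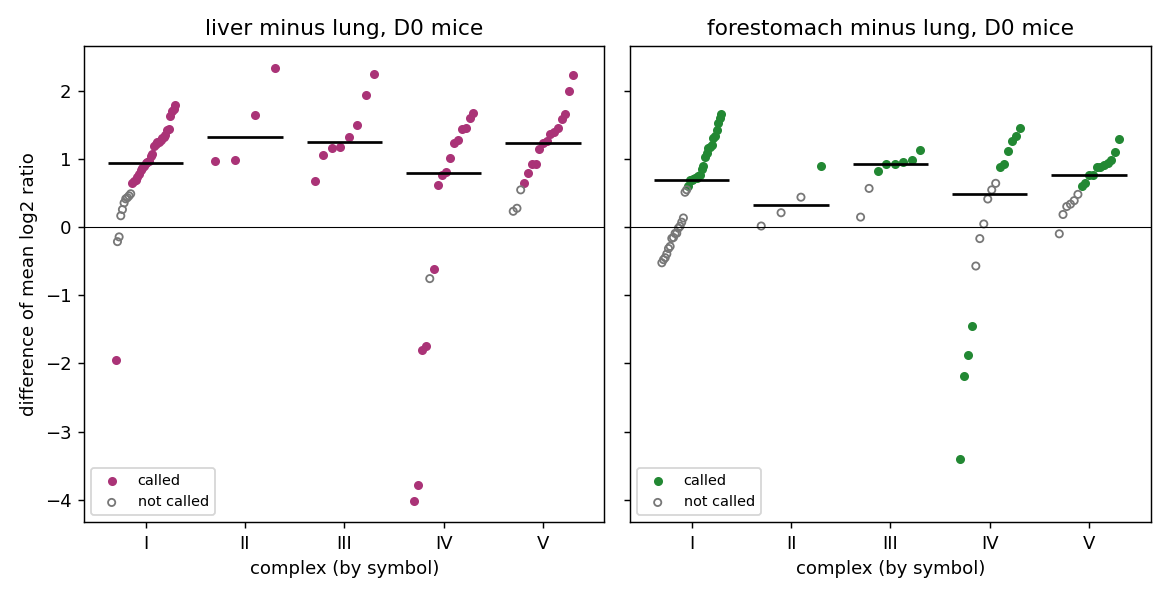
Difference of mean log2 ratio (y axis) between tissues of D0 mice for each subunit gene, grouped by complex. Filled points passed both limits in limma, and bars are medians over a complex. In liver against lung these medians lie between 0.79 (complex IV) and 1.31 (complex II).

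The largest differences of liver over lung were in Sdhb, Uqcrq and Atp5g3. Sdhb, the iron-sulphur subunit of succinate dehydrogenase, had levels of 2.40, 2.08, 2.31, 2.21 and 2.35 in the livers of mice 1 to 5 and 0.04, 0.07, 0.10, -0.05 and -0.49 in their lungs. The groups did not overlap, and the difference was 2.34 ± 0.17 (SE, n = 5 and 5, limma adjusted p = 5.09e-09). Uqcrq, a small subunit of complex III, was higher in liver by 2.24 ± 0.17 (adjusted p = 8.44e-09). Atp5g3, one of 3 genes for the c subunit that forms the rotor ring of ATP synthase, was higher by 2.22 ± 0.26 (adjusted p = 1.98e-06). The c subunit genes encode the same mature protein; Atp5g1 was also higher in liver by 1.99 ± 0.28 (adjusted p = 1.33e-05), and Atp5g2 differed by 0.23 ± 0.12 (adjusted p = 0.11).

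Core subunits were also higher in liver than in lung. Ndufv1, the NADH-binding flavoprotein of complex I, differed by 1.70 ± 0.16 (limma adjusted p = 1.74e-07), and Ndufs1, its large iron-sulphur subunit, by 0.73 ± 0.11 (adjusted p = 2.09e-05). Sdha, the flavoprotein of complex II, was higher by 0.98 ± 0.11, and Uqcrc1, a core protein of complex III, by 1.49 ± 0.13 (adjusted p = 1.36e-06 and 7.06e-08). Cox5a, a nuclear subunit of complex IV, was higher by 1.67 ± 0.25, and Atp5b, the catalytic beta subunit of ATP synthase, by 1.66 ± 0.21 (adjusted p = 2.32e-05 and 4.52e-06).

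Forestomach lay between the other two tissues for most genes. Of the 82 genes, 45 were higher in forestomach than in lung (18.3% of all probes) and 4 lower (20.5%), with a median difference of 0.69. With median centring and no LOWESS that median was -1.31, against -1.07 over all probes, and 23 of the 82 genes lay above that all-probe median. In that fit 0 genes were called higher and 13 lower. The share of all probes called was not counted in this or the other median-centred fits. The direction of the difference rests on the scaling. Liver exceeded forestomach for 24 genes (18.2% of all probes) and lay below it for 2 (20.5%), with a median of 0.34; with median centring 2 were higher and 0 lower, and the median was 1.72 against 0.15 over all probes. The D0 forestomachs differed in gland transcripts: the parietal cell list, 4 genes of the acid-secreting cells of the glandular stomach, averaged 5.60, 4.54 and 3.92 in mice 2, 3 and 5 and 0.05 and -0.13 in mice 1 and 4. With the forestomachs of mice 2, 3 and 5 alone, 54 genes were higher than in lung and 4 lower (17.2% and 20% of all probes), with a median of 0.86. With those of mice 1 and 4 alone, 33 were higher and 11 lower (21.2% and 23.8%), with a median of 0.36. Against liver, the 3 gland-rich forestomachs left 16 genes higher in liver and 3 lower (18.5% and 20.5%), and the 2 gland-poor ones 38 and 3 (20.4% and 23.4%). The order of means was liver, forestomach, lung for 54 of the 82 genes, and for 9 genes no pair of tissues passed the limits.

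Ndufa4, which was named as a complex I subunit and is now assigned to cytochrome c oxidase, had the largest difference of forestomach over lung. Its levels were 1.91, 1.92, 1.11, 2.28 and 2.15 in forestomach and 0.06, 0.12, 0.40, 0.25 and 0.28 in lung. No lung value reached a forestomach value, and the difference was 1.65 ± 0.17 (limma adjusted p = 7.56e-07); with median centring it was -0.52, against -1.07 over all probes. The accessory complex I subunits Ndufb2 and Ndufa10 followed, at 1.60 ± 0.15 and 1.53 ± 0.10 (adjusted p = 2.98e-07 and 8.8e-09); with median centring they were -0.83 and -0.78, also above that all-probe median. The largest differences of liver over forestomach were in Atp5g3 (1.92 ± 0.26), Sdhb (1.44 ± 0.17) and Ndufa13 (1.32 ± 0.26), an accessory complex I subunit also known as GRIM-19, with adjusted p of 1.39e-05, 2.18e-06 and 0.000547. Ndufa13 varied between forestomachs, at 0.32, 1.27, 0.95, -0.76 and 0.56, while the livers lay at 1.63 to 1.95; the 3 higher forestomachs are those rich in gland transcripts.

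Genes that serve the chain were counted in the same way. Of the 44 assembly factors and carriers tested, such as cytochrome c (Cycs), 33 were higher in liver than in lung and 0 lower (22.3% and 26.6% of all probes), with a median of 1.11. Of the 13 citrate cycle genes 8 were higher, among them Mdh2, and 1 (Ogdh) was lower. Of the 14 regulators of mitochondrial biogenesis 7 were higher, among them the coactivator Ppargc1a and the mitochondrial transcription factor Tfam, and 1 (Gabpb1) was lower. In forestomach against lung 20 assembly factors, 7 citrate cycle genes and 1 regulator (Esrra) were higher and 0 of each list lower (18.3% and 20.5% of all probes). In liver against forestomach 20 assembly factors were higher and 3 lower, 5 citrate cycle genes were higher and 0 lower, and 6 regulators were higher and 1 lower (18.2% and 20.5% of all probes).

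The 6 subunit genes lower in liver than in lung (26.6% of all probes) were Cox6a2, Cox8b, Ndufa4l2, Cox4i2, Cox6b2 and Cox7a2l, of which 4 are oxidase isoforms of restricted use. Cox4i2, the lung isoform of subunit 4, had levels of 1.63, 1.92, 1.81, 1.69 and 1.51 in lung and 0.05, -0.05, -0.08, -0.34 and -0.05 in liver. The difference was -1.80 ± 0.14 (limma adjusted p = 1.14e-08), and forestomach was likewise below lung, by -2.18 ± 0.14 (adjusted p = 3.33e-09). Its widely used partner Cox4i1 was higher in liver than in lung by 0.77 ± 0.24 (adjusted p = 0.0117).

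**Figure D2:**
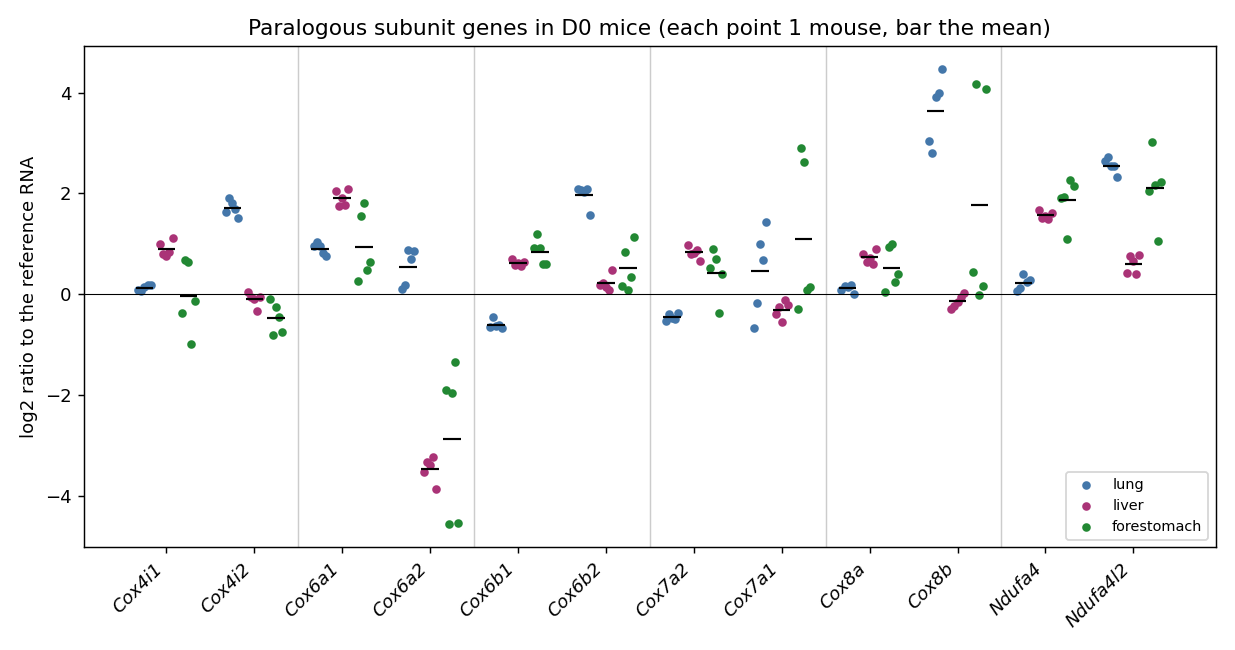
Log2 ratio to the reference RNA (y axis) of paralogous subunit genes (x axis) in D0 mice; each point is 1 mouse and each bar the mean of 5. Cox4i2, Cox6a2, Cox6b2 and Cox8b have their highest means in lung, and Cox7a1 and Cox8b spread over several log2 units in forestomach.

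Cox6a2, the muscle isoform of subunit 6a, had levels of 0.11, 0.19, 0.88, 0.69 and 0.85 in lung and -3.53, -3.32, -3.38, -3.23 and -3.86 in liver. The groups were far apart, with a difference of -4.01 ± 0.53 (limma adjusted p = 6.67e-06), while Cox6a1 was higher in liver by 1.01 ± 0.24 (adjusted p = 0.00159). In forestomach Cox6a2 was well above background on 2 of the 5 D0 arrays only, at -4.56 and -4.54 in mice 2 and 5. The listed values of -1.90, -1.97 and -1.35 in mice 1, 3 and 4 were not well above background, so no size is given for its difference from lung. Cox8b, the muscle isoform of subunit 8, was not well above background on any liver array, which makes lung at least 11.5-fold higher than liver (limma adjusted p = 0.000319). Its partner Cox8a was higher in liver by 0.62 ± 0.16 (adjusted p = 0.0029). Cox6b2 differed by -1.75 ± 0.18 and Cox6b1 by 1.22 ± 0.11 (adjusted p = 4.85e-07 and 6.32e-08).

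Ndufa4l2, a paralogue of Ndufa4 induced under low oxygen, had levels of 2.64, 2.72, 2.54, 2.55 and 2.32 in lung and 0.41, 0.76, 0.66, 0.41 and 0.78 in liver. The difference was -1.95 ± 0.25 (limma adjusted p = 4.16e-06), and forestomach differed from lung by -0.45 ± 0.25 (adjusted p = 0.133). Cox7a2l, which joins complexes III and IV in supercomplexes, differed between liver and lung by -0.62 ± 0.23 (limma adjusted p = 0.0246). Its 3 probes differed by -0.79 to -0.25, so not all of them reached 1.5-fold. Cox7a2 and Cox7b were instead higher in liver by 1.28 ± 0.18 and 1.59 ± 0.13 (adjusted p = 1.05e-05 and 3.74e-08). Cox7a1, the muscle isoform of subunit 7a, differed by -0.76 ± 0.58 between liver and lung and by -1.40 ± 0.58 between liver and forestomach, and neither passed the test (adjusted p = 0.264 and 0.0528). Cox7b2 and Cox8c were not well above background on any of the 56 arrays.

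The muscle isoforms varied among lungs of mice given oil alone, and heart markers varied with them. The 10 cardiac muscle markers averaged -0.25 and -0.27 in mice 1 and 2, where Cox7a1 lay at -0.68 and -0.17. They averaged 2.84, 2.43 and 3.40 in mice 3, 4 and 5, where Cox7a1 lay at 0.99, 0.68 and 1.44. Cox8b was 3.04, 2.81, 3.91, 3.99 and 4.48 in the same 5 lungs, while Cox8a lay at 0.01 to 0.18. The part of heart tissue in these levels was not tested.

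The next comparisons ask whether the subunits differed in mice given chrysene. In lung, 0 of the 82 genes tested passed both limits in limma at D1, D2 or D3, against 0%, 0% and 0.127% of all probes. At an unadjusted p under 0.05, 0 genes were higher and 3 lower at D1 (3.05% and 2.84% of all probes), 1 higher and 0 lower at D2 (2.8% and 3.32%), and 10 higher and 2 lower at D3 (6.05% and 10.1%). The median differences at D1, D2 and D3 were -0.05, 0.0069 and 0.10, against -0.03 over all probes at D3, and the 3 comparisons share the D0 arrays. The D2 median, from 3 lungs, was -0.063 without mouse 13 and 0.065 without mouse 12. Over the dose steps 0 genes passed both limits (0.168% of all probes), with 15 higher and 3 lower at an unadjusted p (6.36% and 11%). With mouse 17, 19 or 18 left out there were 5, 6 and 25 higher, and the share of all probes was not counted in those fits.

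The genes higher at D3 at an unadjusted p came from complexes I, II, III and V. Sdhb had levels of 0.29, 0.61, 0.08, 0.82 and 0.24 in D3 lungs and differed from D0 by 0.48 ± 0.14 (limma adjusted p = 0.138). Atp5b differed by 0.35 ± 0.12, Uqcrc1 by 0.33 ± 0.13 and Ndufs1 by 0.29 ± 0.13 (adjusted p = 0.181, 0.241 and 0.275). Of the 13 citrate cycle genes 8 were higher at D3 at an unadjusted p and 0 lower, with a median of 0.26, among them citrate synthase (Cs), against 6.05% and 10.1% of all probes. Without mice 17 and 19, described next, 2 were higher and 0 lower, with a median of 0.06, against 4.98% and 4.97% of all probes in that fit. Of the 44 assembly factors 2 were higher and 4 lower, or 1 and 5 without these mice.

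The D3 lungs were not alike. The median shift of the subunit genes from their D0 means was 0.28 in mouse 17 and 0.33 in mouse 19, and 0.02, -0.05 and -0.11 in mice 16, 18 and 20. Mice 17 and 19 are those with skeletal muscle transcripts: Acta1, skeletal muscle actin, stood at 7.07 and 7.39, and the keratinocyte list at 3.29 and 3.84. Ucp1, the uncoupling protein of brown fat, stood at 6.74 in mouse 19 and at 6.03 in the D2 mouse 13, whose subunit shift was 0.15. The D3 median was 0.05 without mouse 17 and 0.033 without mouse 19. Without both the D3 median was -0.06, with 2 genes higher and 4 lower at an unadjusted p (4.98% and 4.97% of all probes in that fit), and Sdhb differed by 0.27. Within the 3 slides the D3 medians were 0.29, 0.14 and -0.07.

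**Figure D3:**
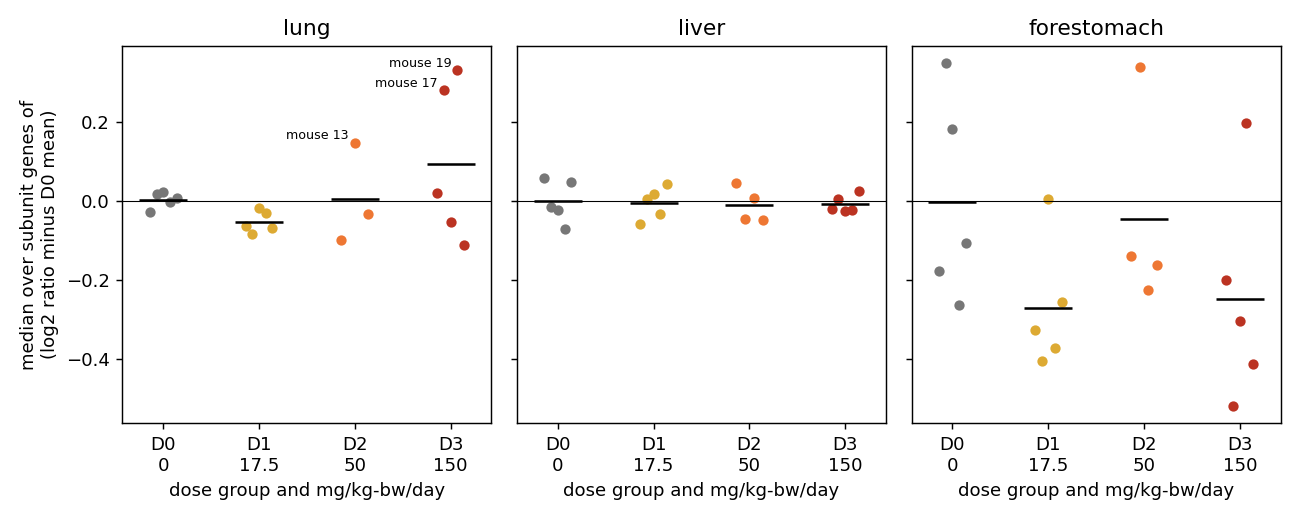
Median over the subunit genes of the log2 ratio minus the gene's D0 mean (y axis) for each array (point) by tissue and dose group (x axis). Liver arrays lie between -0.07 and 0.06, lung arrays between -0.11 and 0.33 with mice 17 and 19 highest, and forestomach arrays between -0.52 and 0.35.

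The largest D3 values in lung were those of the 3 muscle isoforms. Cox8b had levels of 4.50, 7.18, 3.17, 7.64 and 2.83 in mice 16 to 20. Mice 17 and 19 lay far above the D0 range, and the difference of 1.42 ± 0.80 did not pass the test (limma adjusted p = 0.394). Cox6a2 was 1.30, 3.11, 0.17, 2.77 and 0.22 (difference 0.97 ± 0.48, adjusted p = 0.325), and Cox7a1 was 1.61, 3.30, -0.28, 3.39 and -0.67 (difference 1.02 ± 0.77, adjusted p = 0.543). The D2 mouse 13, with a cardiac list mean of 4.03, had 6.04, 1.59 and 2.80 for the 3 genes. Without mice 17 and 19 the D3 differences were -0.15 for Cox8b, 0.02 for Cox6a2 and -0.23 for Cox7a1.

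**Figure D4:**
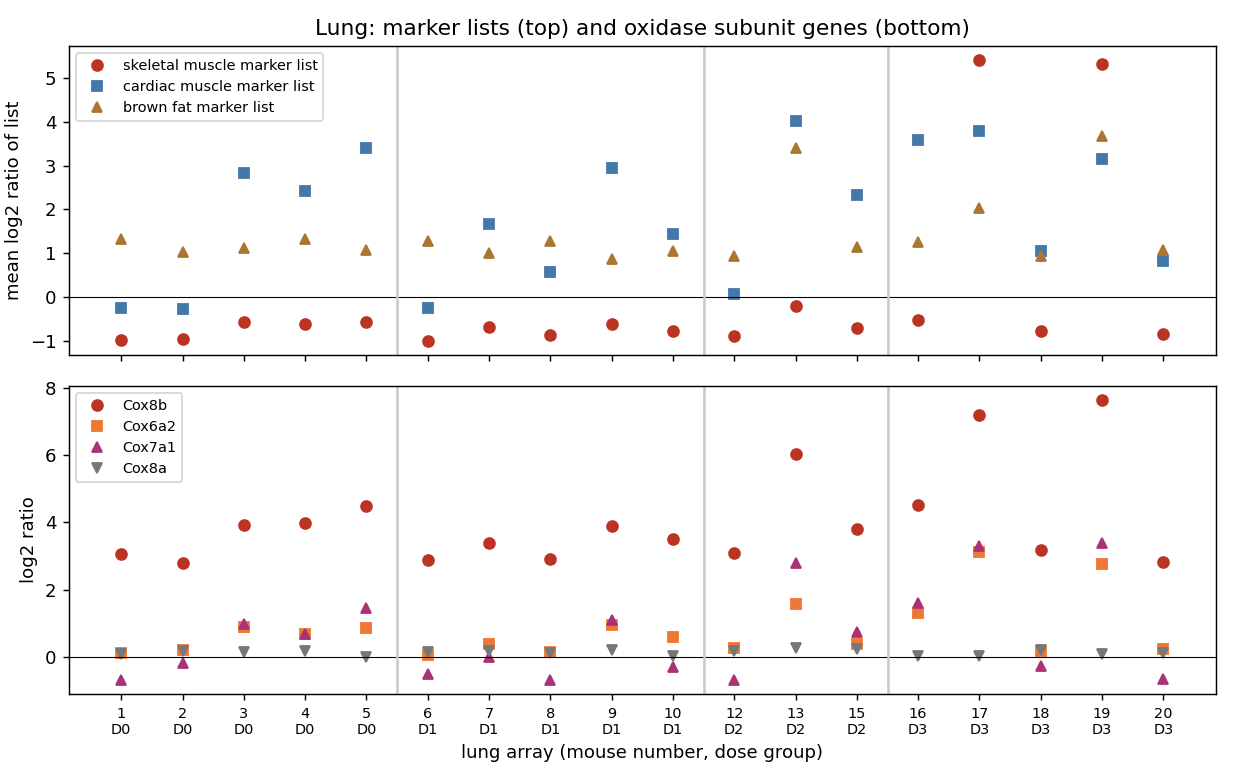
Mean log2 ratio of marker lists and log2 ratio of oxidase subunit genes (y axes) on each lung array (x axis, mouse and dose group). Cox8b, Cox6a2 and Cox7a1 are highest in mice 17, 19 and 13, while Cox8a stays between 0.01 and 0.25.

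The lowest D3 values in lung were small. Cox4i2 had levels of 1.55, 1.18, 1.74, 1.31 and 1.52, with mice 17 and 19 among the lowest, and differed by -0.25 ± 0.10 (limma adjusted p = 0.246), or -0.11 without them. Ndufa3, an accessory complex I subunit, differed by -0.24 ± 0.08 (adjusted p = 0.174), and by -0.32 without these mice. Ndufc2 and Ndufs5, also accessory subunits, differed by -0.21 ± 0.10 and -0.13 ± 0.08 (adjusted p = 0.319 and 0.427), and Ndufc2 by -0.13 without mouse 19. With median centring, which put the median of all probes at 0.11, Ndufa3, Ndufc2 and Ndufs5 lay above 0 but below that median.

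In liver the subunit genes varied less between mice than in lung or forestomach. Of 81 genes tested 0 passed both limits in limma at D1, D2 or D3 or over the dose steps (0% of all probes each). At an unadjusted p, 0 genes were higher and 1 lower at D1 (1.83% and 1.78% of all probes), 0 and 2 at D2 (2% and 1.79%), 1 and 1 at D3 (2.47% and 2.33%), and 1 and 3 over the dose steps (2.65% and 2.77%). The medians were -0.01, -0.02 and -0.02. The 95% intervals at D3 had a median half-width of 0.14 and at most 0.32. The median residual SD of the subunit genes was 0.09 in liver, against 0.16 over all liver probes, 0.16 for the subunits in lung and 0.31 in forestomach.

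Core subunits lay close to 0 in D3 livers. Ndufv1 differed by 0.03 (95% interval -0.09 to 0.15), Sdha by 0.10 (-0.03 to 0.22) and Atp5b by 0.03 (-0.14 to 0.19). The lowest value belonged to the muscle isoform Cox7a1, with levels of -0.40, -0.25, -0.54, -0.11 and -0.21 in D0 and -0.76, -0.45, -0.74, -0.83 and -0.48 in D3. Mice 17 and 20 lay within the D0 range, and the difference of -0.35 ± 0.11 did not pass after adjustment (limma unadjusted p = 0.00362, adjusted p = 0.965). Against the same D0 arrays it was -0.29 at D1 and -0.36 at D2. The skeletal and cardiac muscle lists were at most -0.38 and -0.50 on any liver array.

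The other liver values named here were smaller. Ndufa4 differed by -0.31 ± 0.15, where mouse 17 stood at 0.41 and the other D3 mice at 1.39 to 1.57, and by -0.097 without mouse 17. Ndufc2 and Atp5e, the epsilon subunit of ATP synthase, differed by -0.16 ± 0.09 and -0.13 ± 0.07. Among the highest values were those of Atp5g3 (0.15 ± 0.07), Cox6a1 (0.11 ± 0.09) and Atp5a1, the alpha subunit of ATP synthase (0.10 ± 0.07). Leaving out 1 mouse brought Cox6a1 to 0.051 (without mouse 20) and Ndufc2 to -0.10 (without mouse 19). All of these had a limma adjusted p of 1.000, and with median centring Cox6a1 and Atp5a1 lay below 0 but above the median of all probes, which was then -0.049.

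In forestomach most subunit genes lay lower in dosed mice than in D0 mice, with a wide spread. Of 82 genes tested 0 passed both limits in limma at D1, D2 or D3 (0%, 0% and 0.00727% of all probes). At an unadjusted p, 23 genes were lower and 0 higher at D1 (1.91% and 2.26% of all probes), 10 lower and 1 higher at D2 (4.26% and 3.27%), and 22 lower and 0 higher at D3 (3.79% and 5.45%). The medians were -0.31, -0.05 and -0.26. The D2 median was -0.22 without mouse 12 and 0.0074 without mouse 13. With median centring 0 genes were lower at D1, D2 or D3, and the D3 median was 0.23 against 0.18 over all probes. Over the dose steps 0 genes passed both limits (0.04% of all probes), with 17 lower and 0 higher at an unadjusted p (4.04% and 5.14%). Without mouse 20 there were 10 lower, without mouse 2 there were 11, and without mouse 19 there were 25 lower and 1 call. The share of all probes was not counted in those fits.

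Complex I held 13 of the 22 genes lower at D3, of 37 tested, complex V 5 of 17, complex III 2 of 8, complex IV 2 of 16 and complex II 0 of 4. The smallest p was that of Ndufb6, an accessory subunit of the membrane arm of complex I, with levels of 0.71, 0.91, 0.90, 0.85 and 0.53 in D0 and 0.35, -0.20, -0.16, 0.42 and -0.17 in D3. The groups did not overlap, and the difference was -0.73 ± 0.15 (limma unadjusted p = 9e-05, adjusted p = 0.111). Ndufa6, another accessory subunit, was 0.24, 0.52, 0.41, 0.28 and -0.04 in D0 and -0.20, -0.87, -0.58, 0.22 and -0.64 in D3 (difference -0.69 ± 0.19, adjusted p = 0.183). Ndufb8 differed by -0.70 ± 0.30 (adjusted p = 0.472), with mouse 19 at 0.56 and the other D3 mice between -0.90 and -0.48.

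The core subunits varied in forestomach. At D3 Cox5a differed by -0.57 (95% interval -1.32 to 0.19), Ndufs1 differed by -0.11 (-0.45 to 0.23), Ndufv1 by 0.07 (-0.27 to 0.41) and Atp5b by -0.21 (-0.75 to 0.32). The highest values were those of Cox6b2 (0.46 ± 0.28), Atp5g3 (0.24 ± 0.33), Atp5k, a small membrane subunit of ATP synthase (0.21 ± 0.19; its other probe differed by -0.26), and Ndufa7 (0.21 ± 0.24), with limma adjusted p of 0.69, 0.892, 0.802 and 0.868. Leaving out each mouse in turn moved Cox6b2 from 0.25 (without mouse 20) to 0.61 (without mouse 5), Atp5g3 from 0.015 (without mouse 1) to 0.49 (without mouse 2) and Atp5k from 0.056 (without mouse 4) to 0.37 (without mouse 2). With array column as a term Atp5g3, Atp5k and Ndufa7 were -0.58, -0.32 and -0.37, but column followed dose step on 50 of the 56 arrays, so the terms can hardly be told apart. Of the 44 assembly factors 11 were lower and 1 higher at an unadjusted p, of the 13 citrate cycle genes 3 were lower and 0 higher, and of the 14 regulators 0 were lower and 0 higher, against 3.79% lower and 5.45% higher among all probes.

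Subunit levels moved with markers of the glandular stomach, the part of the organ next to the forestomach. The parietal cell list, which includes the proton pump genes Atp4a and Atp4b, averaged 3.44 to 5.78 on 10 of the 19 arrays and -0.13 to 0.70 on the other 9. The glandular stomach list of 11 genes split the arrays in the same way, at 5.24 to 6.90 and 0.21 to 2.06. The median shift of the subunit genes lay between -0.25 and 0.35 on the 10 arrays and between -0.52 and -0.18 on the 9. The 10 gland-rich arrays comprised 3 of 5 in D0, 2 of 5 in D1, 4 of 4 in D2 and 1 of 5 in D3.

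**Figure D5:**
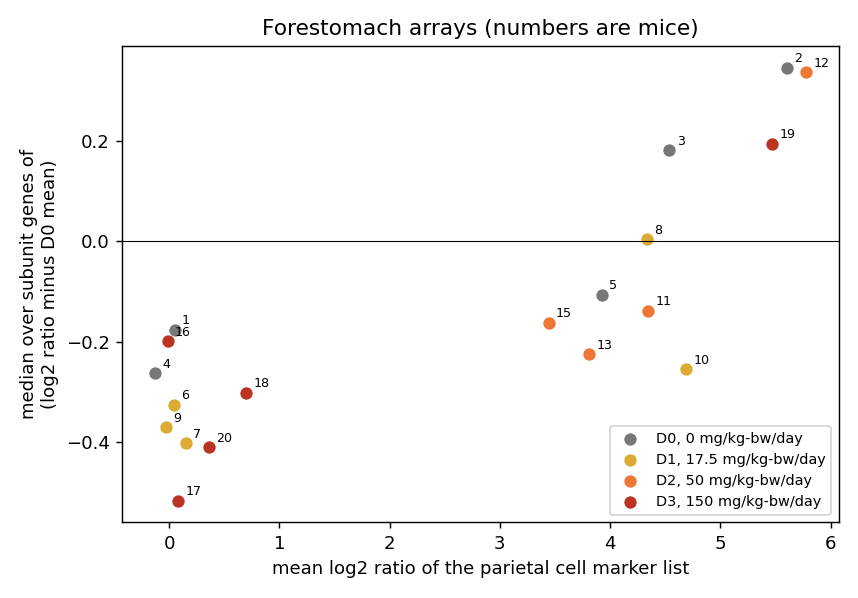
Median over the subunit genes of the log2 ratio minus the gene's D0 mean (y axis) against the mean log2 ratio of the parietal cell list (x axis) for the 19 forestomach arrays, coloured by dose group. The 9 arrays with a list mean below 1 have shifts of -0.52 to -0.18, and the 10 above 3 have shifts of -0.25 to 0.35.

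With the parietal list mean as a covariate the D3 median was -0.13 with 17 genes lower at an unadjusted p (7.7% of all probes in that fit), the D1 median -0.21 with 22 lower (3.61%) and the D2 median -0.18 with 22 lower (3.59%), against 10 at D2 without it. Over the dose steps 1 gene was called lower (0.196% of all probes). The 9 gland-poor arrays held 2 of D0, 3 of D1, 0 of D2 and 4 of D3. Among them the D3 median was -0.17, with 22 of 80 genes lower and 9 higher (11.5% and 12.5% of all probes in that fit). Ndufb6 differed there by -0.82 (limma adjusted p = 0.0596). All of these differences rest on 2 D0 mice. Among the 10 gland-rich arrays the D3 arm was mouse 19 alone, with a median of -0.01; its spread was taken from the other groups, so a count of genes there says nothing about D3. Within the 3 slides the D3 medians were -0.20, -0.32 and -0.25.

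Cox7a1 had the lowest D3 value in forestomach and also split by gland markers. Its levels were -0.29, 2.90, 2.63, 0.08 and 0.15 in D0 and -0.86, -1.30, -0.16, 2.47 and -1.40 in D3, with the gland-rich mouse 19 far above the other D3 mice, and the difference of -1.34 ± 0.80 did not pass the test (limma adjusted p = 0.675); it was -2.02 without mouse 19 and -0.89 without mouse 2. Over all doses it lay at 0.15 to 2.90 on the gland-rich arrays and at -1.40 to 0.08 on the others, without overlap. Cox8b had another pattern: in D0 it was highest in mice 2 and 5, at 4.17 and 4.07, where the adipocyte list averaged 4.79 and 4.59 against at most 0.94 in the other 3 mice. Their brown fat list means, 2.50 and 2.82, were also the highest of D0. These 2 arrays were the D0 arrays of slide 3, with 50.1% and 50.3% of spots well above background against 18.9% to 25.5% on the other 3, so fat transcripts, slide and signal cannot be told apart in D0.

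The last comparison asks whether the D3 difference itself differed between tissues. Between forestomach and lung it did for 9 of 82 genes (0.703% of all probes), all lower in forestomach relative to lung: Cox6b1, Ndufa6, Ndufa8, Ndufa10, Ndufa11, Ndufb5, Ndufb6, Ndufc1 and Ndufs8. For Ndufb6 the difference of effects was -0.77 ± 0.15 (limma adjusted p = 0.0089), from -0.73 in forestomach and 0.04 in lung. For Ndufa6 it was -0.84 ± 0.18 (adjusted p = 0.0144). Without the lung arrays of mice 17 and 19, with median centring, or in a fit of the 2 tissues alone, 0 of the 82 genes passed. Between liver and lung 0 genes passed (0% of all probes), with 0 higher and 0 lower at an unadjusted p (2.8% and 2.45%), and between liver and forestomach 0 passed (0.0772% of all probes), with 17 higher in liver relative to forestomach and 0 lower at an unadjusted p (4.33% and 5.58%).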

How the data were processed

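RNA of lung, liver and forestomach was measured on 56 two-colour arrays (Agilent Feature Extraction 10.7.3.1, per the file headers). The authors deposited scanner intensity values and a table of log2 ratios, made with LOWESS on median signals and no background subtraction. The ratios correlated at 0.977 to 0.998 per array with a LOWESS rebuilt here from the scanner intensities, which sets their scale as log2 and their direction as sample over reference; they were the main values. Deposited flags gave spots well above background (kept if so on at least 3 arrays) and non-uniform spots (set missing).

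Each tissue was fitted with limma 3.58.1 in R 4.3.3, with dose group or dose step, which stands in for the study's MAANOVA. D0 tissues were fitted together (15 arrays), as were D3 effects across tissues. A gene was called where p, adjusted by Benjamini-Hochberg across every probe in the fit, was 0.05 or less and the difference 1.5-fold or more; errors are SE. Of 55681 probes 47.4% could be named through their RefSeq accession. The fit was tested on simulated data. The number of arrays limits the precision.

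The members, gene lists and tests were chosen with earlier results of these data known. Named were the 4 largest values each way at D3 per tissue, isoforms, 1 or 2 core subunits of each complex, and the 3 largest tissue differences each way; Ndufa6 and Ndufb6 in the last comparison follow from the calls there. A withheld item is not reported here. Tissues of a mouse share its number in the labels; same-mouse deviations correlated at 0.06 to 0.27 (liver and lung), -0.07 to 0.09 (forestomach and lung) and -0.17 to 0.25 (liver and forestomach). Alternatives were scanner values with other scaling, filters, array weights, slide, array column and mouse as terms, and each mouse left out; the muscle and parietal list covariates, the parietal subsets (D0 tissues included) and the pathway lists without mice 17 and 19 were chosen after seeing the data.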

Additional observations from a re-analysis of the deposited data

Results flagged for a closer look

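Within the groups of 4 or 5 mice, 85 sets of values were examined for a single distant mouse, and chance gives about 1 in 20. Most sets were of genes picked for large differences on these same arrays, so that rate does not strictly hold for them. In D2 forestomach the median shift of the subunit genes was 0.34 in mouse 12, against -0.14 or less in the other 3 mice. In D0 lung Sdhb was -0.49 in mouse 5, with the next lowest at -0.05. In D3 liver Ndufa4 was 0.41 in mouse 17, with the next lowest at 1.39. In D3 forestomach Ndufb8 was 0.56 in mouse 19, with the next highest at -0.48. Parietal list means were 5.78 in mouse 12 and 3.44 to 4.35 in the other D2 mice, and 5.47 in mouse 19 against at most 0.70 in the other D3 mice. The array of mouse 12 was the D2 array of slide 3, with 50.8% of spots well above background against 27.3% to 34.9% on the other D2 arrays. The part of gland transcripts, slide or signal in these values was not tested.

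The D3 effect in forestomach minus that in lung passed the test of the difference for 9 of 82 genes in limma (0.703% of all probes), and for 0 with median centring, in a fit of the 2 tissues alone or without the lung arrays of mice 17 and 19. The differences were -0.84 for Ndufa6, -0.81 for Ndufs8, -0.77 for Ndufb6, -0.77 for Ndufa10, -0.74 for Cox6b1, -0.74 for Ndufb5, -0.73 for Ndufc1, -0.70 for Ndufa8 and -0.65 for Ndufa11.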

How the results depend on the processing

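In lung, median centring without LOWESS gave member medians of 0.26, 0.20 and 0.30 at D1, D2 and D3, with 24 genes higher at D3. It put Ndufa3, Ndufc2 and Ndufs5 at 0.0054, 0.039 and 0.10, all below the all-probe median of 0.11. Array weights left 4 genes higher at D3, and the share of all probes was not counted in either fit. Without mice 17 and 19, 2 genes were higher (4.98% of all probes) and the median was -0.060 (Cox8b -0.15, Cox7a1 -0.23). Leaving out mouse 13 as well gave 1 higher. Mouse 13 is a D2 mouse, so leaving it out cannot change the D3 differences themselves. Adding the mean of the skeletal muscle markers to the fit gave 2 higher and a median of -0.066. Cox8b, Cox7a1 and Cox6a2 were then -0.26, -0.37 and -0.043. In liver, LOWESS on scanner values gave medians of -0.072 and -0.079 at D2 and D3 and median centring 0.065, -0.10 and -0.10 at D1, D2 and D3. Cox6a1 was -0.012 and -0.014 under these and -0.0015 with normexp, and Atp5a1 was -0.0051 with median centring and -0.0018 with array column as a term.

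In forestomach, 6 genes were lower at D2 with LOWESS or normexp on scanner values, where the share of all probes was not counted. Median centring left 0 lower at D1, D2 and D3, with a D3 median of 0.23. Array weights called 1 gene lower at D2 and 3 at D3 (0.0981% and 0.149% of all probes lower, 0.109% and 0.349% higher). At an unadjusted p they gave 18 lower and 2 higher at D2 (7.87% and 6.36% of all probes). At D3 they gave 28 lower and 0 higher (5.95% and 7.78%). Array weights, and probes well above background on every array, each gave 1 call over dose, where the share of all probes was not counted. Array column, which followed dose step on 50 of 56 arrays, gave as a term 34 lower at D3 (4.81% of all probes in that fit) and a median of -0.61, with Atp5g3, Atp5k and Ndufa7 at -0.58, -0.32 and -0.37; averaging probes put Atp5k at -0.022. With the parietal covariate 22 genes were lower at D2 and 1 was called over dose. Gland-poor arrays gave 15 lower and 3 higher at D1 (5.62% and 7.11% of all probes), and gland-rich arrays gave 10 and 4 lower at D1 and D2 (1.22% and 1.26%). At D3 the gland-rich arm was mouse 19 alone, with a median of -0.010 and Cox7a1 and Ndufb8 at 0.58 and 0.30.

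For D0 tissues, median centring gave medians of 0.36 (liver minus lung, 0 called higher), -1.31 (forestomach minus lung, 0 higher and 13 lower) and 1.72 (liver minus forestomach, 2 higher and 0 lower), against all-probe medians of -0.71, -1.07 and 0.15. The share of all probes called in these fits was not counted. Forestomach minus lung became -0.52 for Ndufa4, -0.83 Ndufb2, -0.78 Ndufa10, -0.88 Cox6b1, -1.23 Cox7a2, -0.58 Cox7b, -1.05 Atp5g1, -1.55 Ndufs1, -1.22 Ndufv1, -1.16 Uqcrc1, -0.91 Cox5a and -1.03 Atp5b. No filter, or a fit of the 2 tissues alone, left 1 gene lower in liver than in forestomach, and probes well above background on every array left 2 lower in liver and 0 lower in forestomach than in lung. The 9 calls between the D3 effects of forestomach and lung became 0 with median centring, a fit of the 2 tissues, or without lung mice 17 and 19, and liver against forestomach gave 1 call without these mice or with probes well above background on every array. The cause of these changes was not tested.

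Leaving out each mouse in turn gave 5 to 24 genes higher in lung at D3 (5 without mouse 17 or 19, 24 without 18, 23 without 20) and 13 to 37 lower in forestomach at D3 (13 without mouse 17 or 20, 37 without mouse 19), 4 to 22 at D2 (4 to 6 without mouse 2, 3, 4, 11 or 13, 22 without 12) and 18 to 29 at D1. These are counts at an unadjusted p, and the share of all probes was not counted in these fits. Ndufa7 in forestomach at D3 ranged from -0.023 (without mouse 3) to 0.38. No paired analysis was possible for dose because the groups share no mouse. With mouse as the replicate block the D0 counts stayed at 63 and 6, 45 and 4, and 24 and 2, and the 9 calls between D3 effects at 9, so the pairing changed no count.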
